A study of Mus musculus with 6 samples.

Results

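The amino acid and monocarboxylate carriers described here are the genes whose symbol in the deposited array table begins with Slc1a, Slc3a, Slc6a, Slc7a, Slc16a, Slc36a, Slc38a or Slc43a. This rule found 53 of 17086 named genes, on 71 probes. Tissue was epididymal white adipose tissue (eWAT), the visceral fat pad that lies against the epididymis, taken at 10 weeks of age. The obese group consisted of 3 db/db mice, homozygous for the db mutation of the leptin receptor, which the labels describe as severely hyperglycaemic. The lean group consisted of 3 db/+ mice, which carry a single copy of the same mutation. All 6 mice were vehicle-treated, per the file headers. On each of the 6 two-colour arrays the RNA of a single mouse was labelled with Cy5 and a vehicle-treated pool of lean eWAT with Cy3, with no dye swap. The sources used here name neither the strain background nor the sex, the vehicle or how many mice were pooled. The db mutation acts in every cell of these mice, so the design does not separate effects within fat from those of whole-body obesity and diabetes.

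Solute carriers of these families move amino acids, lactate, pyruvate, thyroid hormone and related small molecules across the plasma membrane or the lysosomal membrane. The light chains of the SLC7 family reach the surface only when joined to a heavy chain, Slc3a2 (4F2hc) or Slc3a1 (rBAT), and they exchange one amino acid for another. Members of SLC1 and SLC6 are driven by sodium, those of SLC38 by sodium with or without proton exchange, and the lactate carriers of SLC16 by protons, with basigin (Bsg) or embigin (Emb) as their chaperone. In fat, adipocytes release glutamine, alanine and lactate and take up branched-chain amino acids, while macrophages use cystine uptake to make glutathione. Several of these carriers are textbook targets of ATF4, the transcription factor of the amino acid response, which binds a composite element with C/EBP partners.

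Levels are Cy5 intensities on the authors' normalized scale and are compared only between mice for the same probe. The db/db intensities of a gene follow the file, whose order is that of replicates 3, 2 and 1 by the matching ratios. Ratios run from replicate 1 to 3. Differences are in log2 of the mouse over the pool, and a fold change is the mean of the db/db ratios minus that of the db/+ ratios, tested with limma over 17024 genes and called at a Benjamini-Hochberg adjusted p under 0.05. The arrays measured between 23355 and 23506 probes each, and 3 arrays per group limit the precision of all values. A gene was dim where its mean Cy5 and mean Cy3 intensities were both under 0.1. Intensities were mostly given in steps of 0.01, so ratios of dim probes are coarse.

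The fat label was checked against marker lists before the carriers were read. Adipocyte markers were present in all mice, with Pnpla2 as the dim one among the 15 tested. Their summed Cy5 intensity lay between 120 and 151 in db/+ and between 56.8 and 67.4 in db/db. Macrophage markers summed to between 50.8 and 63.3 in db/+ and between 72.1 and 135 in db/db. Markers of the epididymis epithelium, the organ beside the pad, summed to between 1.71 and 12.1 in db/+ but to between 1.67 and 165 in db/db. The median log2 ratio of their 15 tested members was 3.65 and 4.09 in the second and last db/db replicates, against -1.52 in the first and 0.64, 0.03 and -1.16 in the db/+ mice. Epididymal transcripts thus lay above the lean range in 2 of the 3 obese samples and below it in db/db replicate 1. Lymphocyte and neuronal lists were mostly dim, with 8 of 13 tested genes dim in each.

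Of the 53 genes, 52 entered the fit over genes through a probe that bears the symbol in the file, 29 of them not dim and 23 dim. The remaining gene, Slc38a9, was represented in that fit by a probe under another name and is described apart. In db/db eWAT 7 of the 52 passed the test, 13.5% of the members beside 6.68% of all genes tested. Higher were 2 members, beside 2.92% of all genes, and lower were 5, beside 3.77%. The 7 calls were all among members that were not dim. Whether a probe is dim depends in part on the change itself: Slc7a11 was not dim through its db/db intensities alone. None of the 23 dim members passed, beside 1.95% of all dim genes. At an unadjusted p under 0.05 (limma), 3 of these 23 did, beside 534 of 6866 dim genes. The median log2 fold change over its members was 0.04, beside 0.00 over all genes, with 27 members above 0, 22 below and 3 at 0. A difference of at least 2-fold between the group means, called or not, was found in 11 of the 52, 21.2%, beside 6.05% of all genes. On all 6 arrays 51 members were measured, and the db/db and db/+ ratios of 17 of them, 33.3%, did not overlap, beside 26.1% of all genes. The obese ratios were all higher in 9 of them, beside 11.4% of all genes, and all lower in 8, beside 14.7%.

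**Figure D1:**
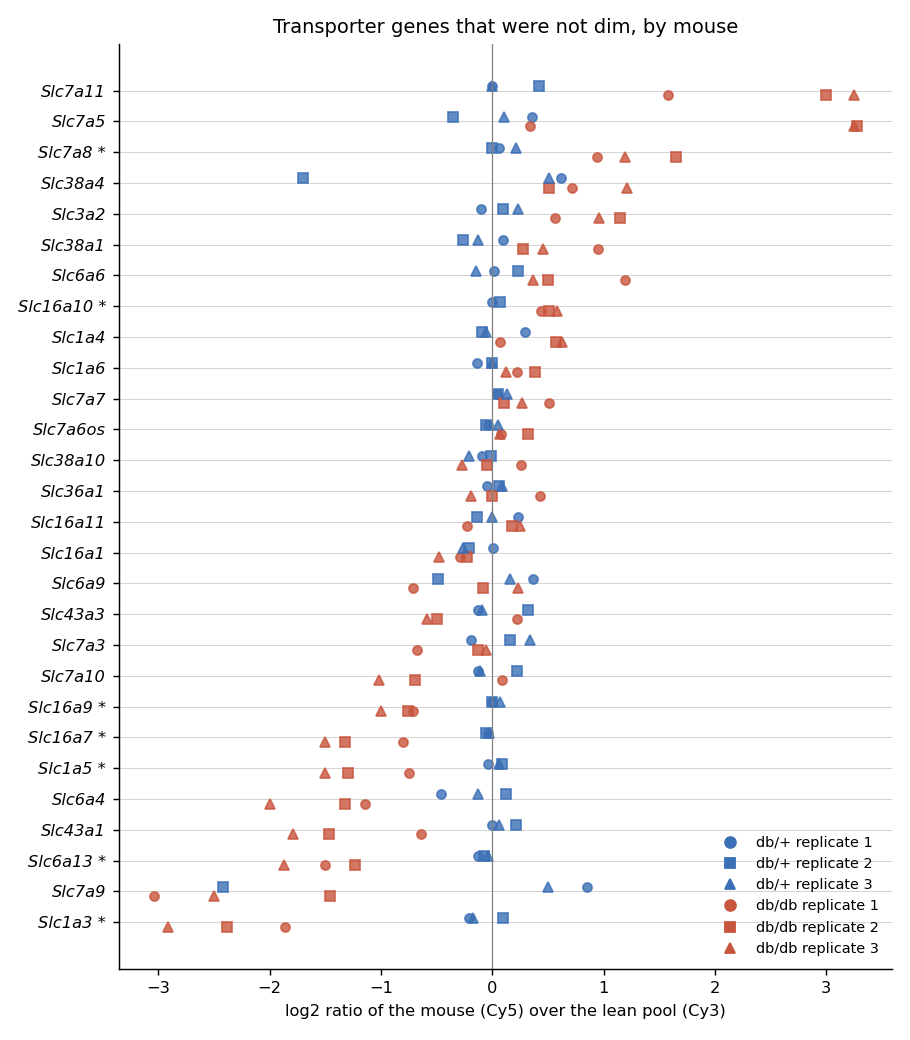
Log2 ratio of each mouse over the lean pool (x axis) for 28 of the 29 carrier genes that were not dim, sorted by fold change (y axis); blue marks are db/+ mice, red marks db/db mice, marker shapes are the replicate numbers, and an asterisk marks the 7 genes called. For Slc1a3 the db/db mice lie between -1.86 and -2.91 while the db/+ mice lie near 0, and for Slc7a5 db/db replicate 1 lies at 0.34 among the db/+ mice.

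The lean mice served as the background of the ratio, since each was set against a lean pool. The sources used here do not state whether that pool held RNA of these same mice. If it did, their mean ratio would lie near 0 by construction and would give no independent background. No gene differed from the pool after adjustment (limma), 227 genes (1.33%) did so at an unadjusted p under 0.05, and no carrier was among them. The error of this test was pooled over both groups, so the spread between obese mice entered it. A lack of calls thus does not show that the lean mice matched the pool. Mean ratios of the 29 carriers that were not dim lay between -0.36 and 0.14 in db/+. The widest lean spread belonged to Slc7a9, at 0.85, -2.42 and 0.50, and to Slc38a4, at 0.62, -1.70 and 0.51.

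Among the light chains and their heavy chains Slc7a8 was higher in db/db, and no other member passed the test. Slc7a8 (LAT2), which exchanges neutral amino acids when paired with Slc3a2, had Cy5 intensities of 2.97, 2.98 and 3.36 in db/+ and of 6.77, 8.8 and 5.62 in db/db. Its log2 ratios were 0.06, 0.00 and 0.21 in db/+ replicates 1 to 3 and 0.94, 1.65 and 1.19 in db/db replicates 1 to 3. All 3 obese mice were thus above all 3 lean mice. The log2 fold change was 1.17 ± 0.20 (SE, n = 3 per group; limma adjusted p = 0.0415), a 2.25-fold rise. In db/db replicate 1 alone, the obese mouse with low epididymis markers, it was 0.85 against the lean mice. A fit with this single obese mouse takes its error from the lean mice, so only the size of the difference is given. With the median of the epididymis markers as a covariate the change of Slc7a8 over all mice was 1.02 ± 0.21 (limma adjusted p = 0.0709).

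Slc3a2 itself, the heavy chain of LAT1, LAT2, Asc-1 and xCT, had Cy5 intensities of 7.18, 7.97 and 7.25 in db/+ and of 14.6, 15.8 and 11.3 in db/db. Its log2 ratios were -0.10, 0.10 and 0.23 in db/+ and 0.56, 1.15 and 0.96 in db/db, without overlap. The fold change of 0.82 ± 0.18 on the log2 scale did not pass the test (limma adjusted p = 0.0722). Without the dim genes in the fit it had an adjusted p of 0.0342, and without db/db replicate 1 it was 0.98 ± 0.13 (adjusted p = 0.0223).

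Slc7a11 (xCT), which imports cystine in exchange for glutamate, was barely above the steps of the scale in lean fat. Its brightest probe read 0.03, 0.04 and 0.03 in db/+ and 0.38, 0.24 and 0.09 in db/db. The log2 ratios were 0.00, 0.42 and 0.00 in db/+ against 1.58, 3.00 and 3.25 in db/db. Every obese mouse lay above every lean mouse, yet the fold change of 2.47 ± 0.49 narrowly missed the threshold (limma adjusted p = 0.0561), and its size is approximate because the lean values are near the floor. A second, dim probe read 1.53 ± 0.31 (adjusted p = 0.0683 over all probes), while another dim probe read -0.09 ± 0.08. In db/db replicate 1 alone the brightest probe differed by 1.45, and with the epididymis covariate by 1.87 ± 0.22 (limma adjusted p = 0.0356).

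Slc7a5 (LAT1), the carrier of large neutral amino acids such as leucine, had the least even values among the obese mice. Cy5 intensities were 0.36, 0.22 and 0.28 in db/+ and 3.61, 5.16 and 0.38 in db/db. Ratios of db/db replicates 2 and 3 were 3.28 and 3.25, whereas db/db replicate 1, at 0.34, fell among the lean values of 0.36, -0.35 and 0.11. The fold change of 2.25 ± 0.91 did not pass (limma adjusted p = 0.234). It was 3.23 ± 0.24 without db/db replicate 1 (limma adjusted p = 0.00982) and 0.30 in that mouse alone. Both mice with high Slc7a5 were the pair with epididymal transcripts, and with the epididymis covariate the difference was 1.13 ± 0.39 (adjusted p = 0.182). The part of the epididymal tissue in the Slc7a5 signal was not tested beyond these values.

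Other light chains did not pass. Slc7a10 (Asc-1), a carrier of small neutral amino acids that is used as a surface marker of white adipocytes, read 8.64, 10.4 and 7.54 in db/+ and 4.41, 5.18 and 9.9 in db/db. Its ratios were -0.13, 0.22 and -0.11 in db/+ against 0.09, -0.69 and -1.02 in db/db, so 2 obese mice were below the lean range and the remaining mouse was inside it. The fold change was -0.53 ± 0.32 (limma adjusted p = 0.395). Slc7a7 (y+LAT1), which exports cationic amino acids and is expressed in macrophages, read 0.23 ± 0.11 (adjusted p = 0.303).

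Slc7a9, the light chain that takes up cystine in kidney with Slc3a1, had the most negative value that was not called, -1.98 ± 1.03 (limma adjusted p = 0.326). Its ratios were 0.85, -2.42 and 0.50 in db/+ and -3.04, -1.46 and -2.50 in db/db, so db/+ replicate 2 lay inside the obese range. Foxj1, the regulator of motile cilia, was chosen for comparison after its values were seen and had ratios of 0.94, -2.95 and 0.52 in db/+ and -3.92, -0.29 and -1.44 in db/db. Collectrin (Cltrn), a membrane partner of SLC6 carriers, read 1.09, -2.39 and 0.45 in db/+ and -3.32, 0.07 and -0.14 in db/db. The epithelial cadherins Cdh1 and Cdh16, also chosen after their values were seen, shared these lows but not the rest. Cdh1 read 0.99, -2.67 and 0.53 in db/+ and -4.02, 3.10 and 3.79 in db/db. Cdh16 read 0.98, -2.75 and 0.25 in db/+ and -4.48, 2.49 and 3.39 in db/db, so both were high in the db/db mice with epididymal transcripts, where Slc7a9 was low. All 5 genes were low in db/+ replicate 2 and lowest in db/db replicate 1, and the source of this shared difference between mice was not tested. The heavy chain Slc3a1 was dim, at -0.52 ± 0.11 (adjusted p = 0.0675).

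**Figure D2:**
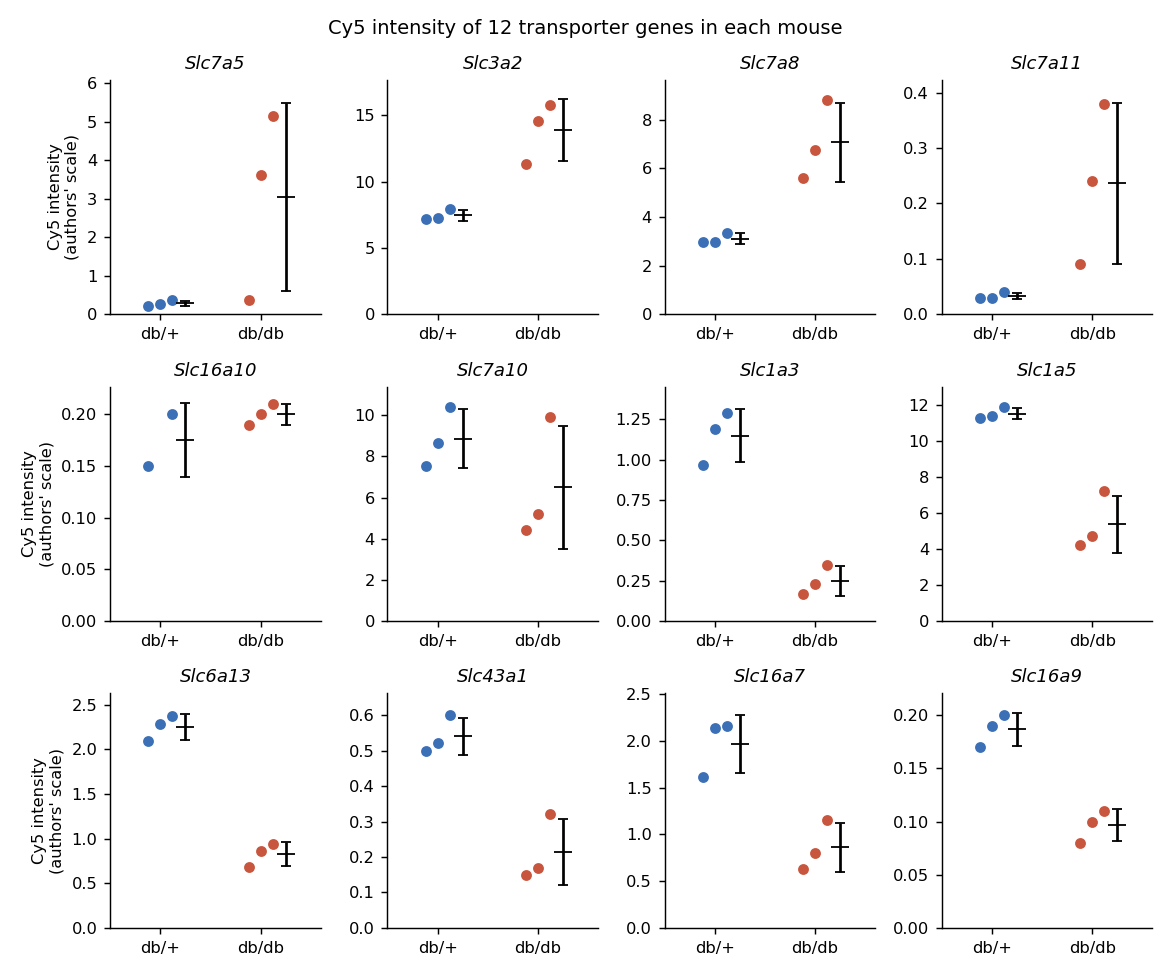
Cy5 intensity on the authors' scale (y axes, each starting at 0) of 12 carrier genes in the db/+ (blue) and db/db (red) mice, ordered by value within a group, with the mean and SD of the group in black. Slc16a10 has no value in a lean mouse. The groups are apart for Slc7a8, Slc3a2, Slc7a11, Slc1a3, Slc1a5, Slc6a13, Slc43a1, Slc16a7 and Slc16a9. Slc7a5 shows 2 high obese mice and 1 at 0.38, just above the lean values.

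Promoters were read for the composite element of the amino acid response because Slc7a11 is a textbook ATF4 target and the 2 light chains Slc7a8 and Slc7a11 lay above the lean range in all obese mice. Sequences are those of RefSeq (GRCm38.p6), from 250 bases before to 50 bases after a gene's start, and 38 of the 53 carrier genes matched, with 55 windows. Slc7a5 had no window and could not be read. The letters TGATGNAA were searched on both strands and occurred in 4 of these windows (7.27%), beside 1304 of 32851 promoters (3.97%). Those 4 windows belonged to 3 genes, Slc7a11, Slc1a4 and Slc7a7, the last with a pair of overlapping windows. The sequences that follow are 1 window of each, with the matched letters in capitals, and the window of the called Slc7a8, which holds no match.
Slc7a11, chr3:50443564-50443863, minus strand: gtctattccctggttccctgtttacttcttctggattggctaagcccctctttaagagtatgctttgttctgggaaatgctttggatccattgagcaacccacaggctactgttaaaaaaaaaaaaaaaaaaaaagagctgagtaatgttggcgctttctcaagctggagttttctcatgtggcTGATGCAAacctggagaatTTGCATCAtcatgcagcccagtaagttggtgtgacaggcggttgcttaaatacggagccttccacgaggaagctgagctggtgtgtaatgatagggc
Slc1a4, chr11:20332664-20332963, minus strand: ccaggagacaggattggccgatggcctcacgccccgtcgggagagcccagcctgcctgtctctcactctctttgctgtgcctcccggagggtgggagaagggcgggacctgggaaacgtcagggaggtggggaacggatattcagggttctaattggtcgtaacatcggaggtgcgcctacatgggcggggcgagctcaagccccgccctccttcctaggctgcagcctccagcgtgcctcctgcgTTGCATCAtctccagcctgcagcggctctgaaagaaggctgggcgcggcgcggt
Slc7a7, chr14:54417895-54418194, minus strand: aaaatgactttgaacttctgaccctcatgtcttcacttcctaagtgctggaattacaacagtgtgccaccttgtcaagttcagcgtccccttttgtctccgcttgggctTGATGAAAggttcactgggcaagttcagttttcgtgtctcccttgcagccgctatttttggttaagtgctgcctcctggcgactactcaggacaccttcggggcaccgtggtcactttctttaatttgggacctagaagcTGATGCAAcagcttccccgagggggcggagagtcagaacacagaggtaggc
Slc7a8, chr14:54781837-54782136, minus strand: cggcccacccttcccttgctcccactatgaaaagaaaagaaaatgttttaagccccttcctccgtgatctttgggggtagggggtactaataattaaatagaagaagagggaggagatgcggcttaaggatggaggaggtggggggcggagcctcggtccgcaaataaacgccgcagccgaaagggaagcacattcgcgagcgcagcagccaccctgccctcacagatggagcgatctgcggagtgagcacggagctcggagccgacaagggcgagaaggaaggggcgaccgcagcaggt
In Slc7a11 the matches begin at -66 (TGATGCAA) and, on the opposite strand, at -47 (printed as TTGCATCA), counted from the gene start as 0. That of Slc1a4 begins at -4, and those of Slc7a7 at -141 (TGATGAAA) and -1. A match describes letters in this window and no binding. Of the 3 genes with a match, Slc7a11 read 2.47, Slc1a4 0.38 and Slc7a7 0.23 on the log2 scale, and none passed the test. Slc7a8, without a match, passed. The part of ATF4 in these changes was not tested.

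Among the sodium-driven carriers of glutamate, glutamine and related amino acids, the calls were lower in db/db. Slc1a3 (EAAT1, also GLAST), a high-affinity glutamate and aspartate importer best known from astrocytes, showed the largest called change. It read 0.97, 1.29 and 1.19 in db/+ and 0.17, 0.23 and 0.35 in db/db. Ratios were -0.21, 0.10 and -0.17 in db/+ against -1.86, -2.38 and -2.91 in db/db. The groups were far apart, with a log2 fold change of -2.29 ± 0.29 (SE; limma adjusted p = 0.025), or 4.9-fold lower. In db/db replicate 1 alone it was -1.77.

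Slc1a5 (ASCT2), a sodium-dependent exchanger of glutamine and other neutral amino acids, read 11.3, 11.4 and 11.9 in db/+ and 4.21, 4.71 and 7.21 in db/db. Its ratios were -0.04, 0.09 and 0.06 in db/+ and -0.75, -1.30 and -1.50 in db/db, again without overlap. The fold change was -1.22 ± 0.21 (limma adjusted p = 0.0425), or 2.33-fold lower, and a second probe gave -1.19 ± 0.22 (adjusted p = 0.056 over all probes). Another and brighter probe had values on the 3 db/db arrays alone, at -0.59, -1.21 and -1.23, with 1 spot near the ceiling of its array. The related Slc1a4 (ASCT1), an exchanger of serine and other small amino acids, read 0.38 ± 0.20 (adjusted p = 0.329), with 0.07, 0.57 and 0.63 in db/db and 0.29, -0.09 and -0.06 in db/+. Slc1a6, a glutamate carrier of Purkinje cells, read 0.28 ± 0.09 (adjusted p = 0.13), and the glial Slc1a2 was dim.

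Slc6a13 (GAT2), which takes up GABA and taurine in liver and kidney and at the surface of the brain, was lower in all obese mice. It read 2.09, 2.37 and 2.29 in db/+ and 0.68, 0.94 and 0.86 in db/db. Ratios were -0.13, -0.07 and -0.04 in db/+ and -1.50, -1.23 and -1.87 in db/db. The log2 fold change was -1.45 ± 0.17 (limma adjusted p = 0.0224), or 2.74-fold lower. In db/db replicate 1 alone it was -1.42, nearly the same size. A second, dim probe of this gene, at intensities of about 0.02, read 0.39 ± 0.25.

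The other carriers of transmitters and osmolytes did not pass. Slc6a6, the taurine transporter, read 0.65 ± 0.25 (limma adjusted p = 0.219), with ratios of 1.19, 0.50 and 0.37 in db/db above 0.02, 0.23 and -0.15 in db/+. A second, dim probe of Slc6a6 read 0.06 ± 0.31. Slc6a13 also carries taurine, and the difference between both genes was not tested. Slc6a4, the serotonin transporter, read -1.33 ± 0.28 (adjusted p = 0.0656), with Cy5 intensities of 0.03 to 0.05 in db/db and 0.08 to 0.13 in db/+, near the floor. Slc6a9, the glycine transporter GlyT1, read -0.20 ± 0.35 (adjusted p = 0.764) with overlapping groups. The creatine transporter Slc6a8 was dim and so cannot be read here. All 5 sodium-coupled neutral amino acid carriers of SLC6 that were tested, Slc6a14, Slc6a16, Slc6a18, Slc6a19 and Slc6a20b, were dim, with fold changes between -0.27 and 0.19.

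Of the 4 tested carriers of lactate and pyruvate, Slc16a7 fell and none rose, beside 3.77% lower and 2.92% higher over all genes. Slc16a7 (MCT2), the high-affinity member, read 2.14, 2.16 and 1.61 in db/+ and 0.8, 0.63 and 1.15 in db/db. Its ratios were -0.04, -0.06 and -0.03 in db/+ and -0.80, -1.32 and -1.50 in db/db. The fold change was -1.17 ± 0.19 (limma adjusted p = 0.0396), or 2.24-fold lower, and -0.76 in db/db replicate 1 alone. Slc16a1 (MCT1), the widely expressed member, read 2.03, 1.83 and 1.64 in db/+ and 1.48, 1.37 and 1.54 in db/db. Against the pool its ratios were 0.01, -0.21 and -0.26 in db/+ and -0.29, -0.23 and -0.48 in db/db, so they overlapped, with a change of -0.18 ± 0.11 (adjusted p = 0.383). Its direction turned to 0.09 ± 0.18 under quantile normalization. Slc16a3 (MCT4), the lactate exporter of glycolytic cells, was dim, at 0.03 to 0.04 in every mouse, and read 0.22 ± 0.18 (adjusted p = 0.544; -0.13 ± 0.38 under quantile normalization).

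The chaperones and the enzymes around these carriers were read from a list of their own. Their calls stand beside 2.92% of all genes called higher and 3.77% called lower. Embigin (Emb), the preferred partner of MCT2 and the called member of 5 tested partners, rose by 1.39 ± 0.18 (limma adjusted p = 0.0259). Its ratios were -0.07, 0.26 and 0.13 in db/+ and 1.16, 1.64 and 1.69 in db/db, opposite in direction to Slc16a7. Basigin (Bsg), the partner of MCT1 and MCT4, read -0.14 ± 0.10 (adjusted p = 0.472). Of 10 tested genes of lactate and pyruvate handling 2 fell and none rose, with a median of -0.24. Mpc1, a subunit of the mitochondrial pyruvate carrier, fell by 1.26 ± 0.17 (adjusted p = 0.0279), and Pdha1, of pyruvate dehydrogenase, fell by 0.84 ± 0.11 (adjusted p = 0.0245). The second subunit Mpc2 read -0.86 ± 0.24 (adjusted p = 0.109), a size that is approximate because 1 of its spots lay near the ceiling of its array, and Ldha, which makes lactate, read -0.34 ± 0.18 (adjusted p = 0.341).

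In the rest of SLC16, 2 of the 7 tested members passed, beside 6.68% of all genes. Slc16a9 (MCT9), linked to carnitine transport in humans, read 0.17, 0.19 and 0.2 in db/+ and 0.08, 0.1 and 0.11 in db/db. Ratios of 0.00, 0.00 and 0.07 in db/+ stood against -0.71, -0.76 and -1.00 in db/db. The fold change was -0.85 ± 0.09 (limma adjusted p = 0.0187), or 1.8-fold lower. Slc16a10 (TAT1), which moves aromatic amino acids and thyroid hormone, was called higher by 0.48 ± 0.06 (adjusted p = 0.0397) on 5 arrays, since db/+ replicate 3 gave no value and the fit dropped it. Its ratios were 0.00 and 0.07 in db/+ and 0.44, 0.51 and 0.58 in db/db. Its Cy5 intensities overlapped, at 0.15 and 0.2 in db/+ and 0.21, 0.2 and 0.19 in db/db, and from the Cy5 channel alone the change was 0.22 ± 0.18 (adjusted p = 0.606). None of 5 tested genes of thyroid hormone handling passed; the largest change was that of Thrsp, a thyroid-responsive lipogenic gene, at -1.51 ± 0.31 (adjusted p = 0.0608).

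None of the 5 tested carriers of SLC38 passed. Slc38a1 (SNAT1), a glutamine carrier, read 0.66 ± 0.21 (limma adjusted p = 0.142), with 0.95, 0.28 and 0.46 in db/db above 0.10, -0.26 and -0.13 in db/+. Slc38a2 (SNAT2), the carrier that cells raise when starved of amino acids, read 0.07 in each lean mouse and 0.1, 0.09 and 0.13 in db/db. Its ratios were 0.00, 0.00 and -0.19 in db/+ and 0.89, 0.17 and 0.51 in db/db, a change of 0.59 ± 0.20 (adjusted p = 0.168), but its second dim probe read -0.06 ± 0.17. Slc38a4 read 1.00 ± 0.71 (adjusted p = 0.473), and without the low db/+ replicate 2 its lean ratios of 0.62 and 0.51 lay within the obese range of 0.51 to 1.21. A second, dim probe of Slc38a4 read 0.29 ± 0.56. Slc38a3 (SNAT3) was dim. Slc38a9, the lysosomal arginine sensor, had 2 probes under its symbol, both dim, at 0.07 ± 0.17 and -0.01 ± 0.18. A brighter probe that RefSeq assigns to Slc38a9, but that bears an older clone name in the file, read 0.47, 0.59 and 0.51 in db/+ and 0.34, 0.33 and 0.42 in db/db. Its ratios were -0.06, -0.05 and 0.09 in db/+ and -0.16, -0.38 and -0.55 in db/db, without overlap, and the change of -0.36 ± 0.12 did not pass (adjusted p = 0.15).

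Of the SLC43 family, Slc43a1 (LAT3), a facilitative carrier of branched-chain amino acids, read 0.5, 0.6 and 0.52 in db/+ and 0.15, 0.17 and 0.32 in db/db. Its ratios of -0.64, -1.47 and -1.79 in db/db lay below 0.00, 0.21 and 0.06 in db/+, but the change of -1.39 ± 0.32 did not pass (limma adjusted p = 0.0747). Slc43a3, a nucleobase carrier, read -0.33 ± 0.27 (adjusted p = 0.551). The proton-coupled lysosomal carrier Slc36a1 read 0.05 ± 0.17 (adjusted p = 0.927). Slc36a2 was not analysed here, having no probe under that symbol. Of the cationic carriers, Slc7a3 read -0.39 ± 0.23 (adjusted p = 0.388), and Slc7a2, the arginine importer of activated macrophages, was dim, with 0.02, 0.03 and 0.02 in db/+ and 0.04, 0.04 and 0.05 in db/db. Slc7a6os, caught by the rule on symbols, is the opposite-strand neighbour of a carrier and not a carrier, and read 0.17 ± 0.08 (adjusted p = 0.291). Its second probe, also not dim, read -0.31 ± 0.12, in the other direction.

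Marker genes moved with several of these changes. Calls per marker list stand beside 2.92% of all genes called higher and 3.77% called lower. The median ratio of the adipocyte markers was -0.09, 0.07 and -0.04 in db/+ and -0.62, -1.17 and -1.46 in db/db, lowest in db/db replicate 3 as was the case for the 5 carriers called lower and for Slc43a1 and Slc6a4. Slc6a13 was an exception in the other mice, with db/db replicate 2 at -1.23 above db/db replicate 1 at -1.50. Of the 15 adipocyte markers 6 fell and Lep rose. Endothelial markers had medians of -0.26, 0.15 and -0.06 in db/+ and -0.28, -0.77 and -0.95 in db/db, with 1 of 11 called, Egfl7, lower. Macrophage markers had medians of -0.13, 0.21 and -0.03 in db/+ and 1.25, 0.44 and 0.76 in db/db, with 5 of 14 higher. In whole tissue, fewer cells of a type and less RNA per cell cannot be told apart, and the part of these cell types in the carriers' changes was not tested.

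**Figure D3:**
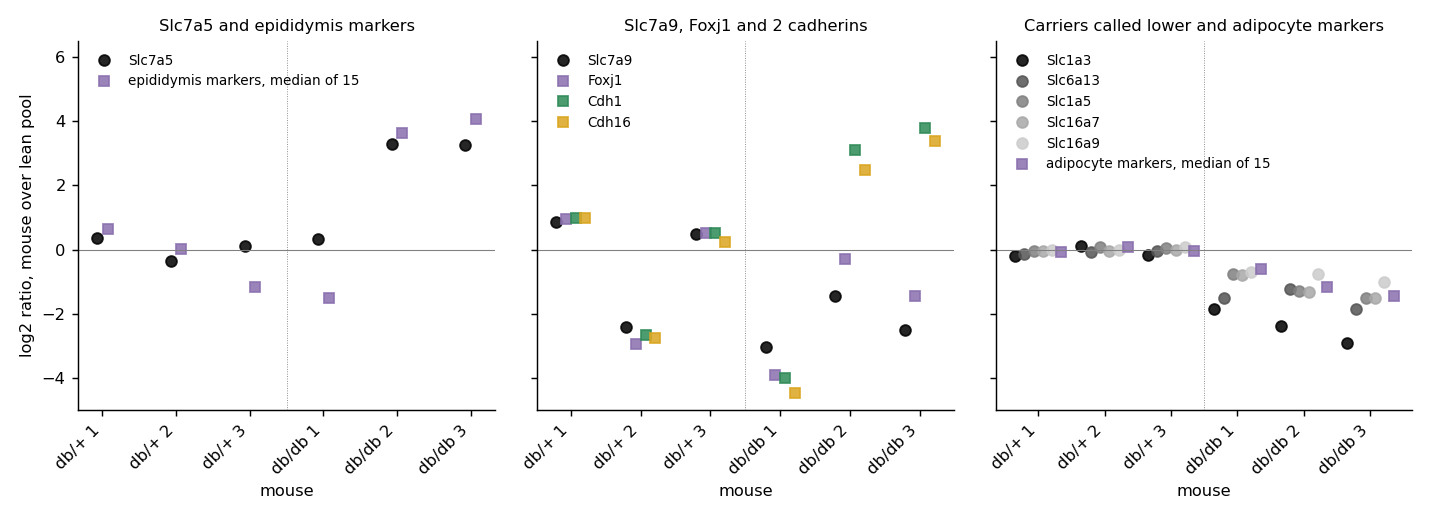
Log2 ratio over the lean pool (y axis) in each of the 6 mice (x axis), in 3 panels that set carriers (grey and black circles) beside other genes or marker medians (coloured squares); the dotted line parts db/+ from db/db. Slc7a5 and the median of 15 epididymis markers are both high in db/db replicates 2 and 3, at 3.28 and 3.25 and at 3.65 and 4.09; Slc7a9, Foxj1, Cdh1 and Cdh16 are all below -2 in db/+ replicate 2 and lowest in db/db replicate 1, but Cdh1 and Cdh16 are high in the other db/db mice; the 5 carriers called lower and the median of 15 adipocyte markers are below 0 in all db/db mice.

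Genes that use or sense the transported molecules were counted from lists. Of 18 tested genes of the amino acid response 2 rose and 3 fell, with a median of 0.01. Over all genes tested 2.92% were called higher and 3.77% lower. Atf3, a stress-induced transcription factor, rose by 2.08 ± 0.35 (limma adjusted p = 0.0415) and Aldh18a1, of proline synthesis, by 0.75 ± 0.09 (adjusted p = 0.0232). Asns, asparagine synthetase, fell by 1.65 ± 0.10 (adjusted p = 0.00658), and Eif4ebp1, the translation repressor 4E-BP1, fell by 2.69 ± 0.22 (adjusted p = 0.0125). Atf4 itself read 0.31 ± 0.09 (adjusted p = 0.118), and Chac1 read -0.88 ± 0.19 (adjusted p = 0.0649). Genes of this list moved in both directions, and the part of ATF4 in the carriers' changes was not tested.

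Amino acid metabolism showed few calls, to be read beside the 6.68% of all genes called. Of 8 tested genes of glutamine and glutamate metabolism 1 fell, with a median of -0.14: Gpt2, the mitochondrial alanine aminotransferase, fell by 2.06 ± 0.10 (limma adjusted p = 0.00442), with ratios of -1.89, -2.11 and -1.99 in db/db. Glul, glutamine synthetase, read -0.05 ± 0.23 (adjusted p = 0.943). Of 9 genes of creatine and taurine metabolism 2 fell, with a median of 0.08. Csad, which makes hypotaurine for taurine synthesis, fell by 1.17 ± 0.09 (adjusted p = 0.0121), and Fmo1, a flavin monooxygenase that can oxidise hypotaurine to taurine, fell by 1.55 ± 0.17 (adjusted p = 0.0197). Of 16 genes of amino acid sensing at the lysosome 1 passed, Mtor, which fell by 0.39 ± 0.07 (adjusted p = 0.0419), with a median of 0.06. None of 9 glutathione genes and none of 11 arginine and polyamine genes passed, with medians of 0.27 and 0.32. Gclm, the modifier subunit of the first enzyme of glutathione synthesis, read 0.50 ± 0.15 (adjusted p = 0.124), and Sat1, which acetylates polyamines, read 1.05 ± 0.20 (adjusted p = 0.054).

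The calls among the carriers depended on which mice and settings entered the fit. None of the 7 called carriers changed sign in any alternative run. This was partly fixed in advance: their ratios did not overlap between the groups, so leaving out a mouse could not turn a sign. The runs with all probes, without dim genes and with the series matrix used nearly the same ratios. An offset of 0.05 on both channels called the same 7 (7.23% of all genes called). So did the fit of all probes (5.44%) and the series matrix (6.72%). The Cy5 channel alone called Slc7a8, Slc1a3 and Slc6a13, or 5.77% of the members beside 2.19% of all genes. Leaving out dim genes gave 11 of 29, beside 15.2%, and array weights 22 of 52, beside 39.2%. The weights of db/db replicates 1, 2 and 3 were 0.164, 5.46 and 0.406. Most of the obese weight thus lay on replicate 2, a mouse with epididymal transcripts. With the epididymis covariate 5 of 52 passed, 9.62% beside 6.78%: 4 of the 7, without Slc7a8, Slc6a13 and Slc16a10, and in addition Slc7a11. The unplanned fit of db/db replicate 1 alone rests on a single obese mouse, so its calls are not counted here. With any 1 of the 3 lean mice left out no member was called, beside 0.998%, 0.678% and 0.318% of all genes without db/+ replicates 1, 2 and 3. At an unadjusted p under 0.05 (limma) the members numbered 13, 15 and 15, beside 3195, 3163 and 2898 of all genes. Slc6a13 was called without each of the 3 db/db mice in turn, Slc1a3 and Slc16a9 without db/db replicates 1 or 3, and Slc7a8, Slc1a5, Slc16a7 and Slc16a10 without db/db replicate 1 alone. Without db/db replicate 1, 13 carriers were called, 25% beside 20.2% of all genes, adding Slc7a5, Slc3a2, Slc7a11, Slc43a1, Slc6a4 and Slc7a10 to the 7. Without db/db replicate 2 there was 1, beside 1.46% of all genes, and without db/db replicate 3 there were 4, beside 3.4%.

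**Figure D4:**
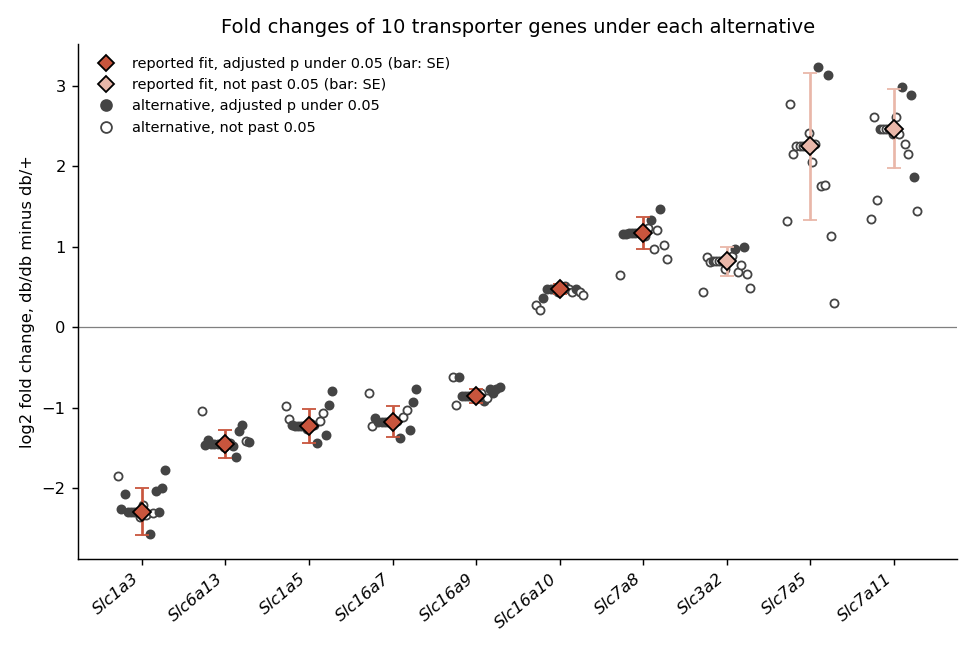
Log2 fold change, db/db minus db/+ (y axis), of 10 carrier genes (x axis) in the reported fit (diamonds with SE) and in each alternative (circles, filled where the adjusted p is under 0.05). No gene crosses 0, and Slc7a5 has the widest range, from 0.30 in db/db replicate 1 alone to 3.23 without that mouse.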

How the data were processed

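RNA of eWAT from 3 db/db and 3 db/+ mice was amplified in 2 rounds and hybridised with a lean reference, per the labels; scans were quantified in Agilent Feature Extraction 8.5.1.1, per the submitters' processing notes. For 23556 probes the authors deposited an intensity per channel and array, and a p-value, which was not used; 97.3% of intensities are multiples of 0.01. The sources used here do not state their background correction or normalization. The authors also deposited log10 ratios in a series matrix, equal to the table's ratios within 0.001246 on the db/+ arrays. Intensity columns of db/db mice carry no replicate number, so ratios of numbered db/db replicates come from the matrix. The db/db intensities are in the order of the file. Set beside the ratios, as for Slc16a7, that order is replicates 3, 2 and 1.

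Carriers were found by the file's own symbol, other genes after an update to RefSeq symbols. Each gene was taken from its brightest probe measured on all 6 arrays, or else with at least 2 values per group. Fits used limma 3.58.1 in R 4.3.3 (lmFit, eBayes, no block, two-sided), with Benjamini-Hochberg adjustment over 17024 genes. In simulated data of 16858 genes the fit recovered 18%, 44%, 78% and 90% of genes changed 1.5-, 2-, 4- and 8-fold for this comparison. These were 9, 22, 39 and 45 of 50 genes for each size, beside 96 false calls, so a large part of the simulated calls was false. The changes were planted in genes above the lowest 25% of intensity, with equal noise in both groups. Replicates are described as biological, so p-values measure the spread between mice, pooled over both groups. The fit of db/db replicate 1 alone takes its spread from the lean mice, so only effect sizes are given for it in the text. The members, lists and named genes (called members, 12 preset members, called list genes) were chosen with earlier results of these data known; other genes named from the lists, and Foxj1, Cdh1 and Cdh16, were picked after their values were seen. Alternatives covered quantile normalization, the Cy5 channel alone, an offset of 0.05, leaving out dim probes, all probes, the matrix, a replicate block, array weights, the epididymis marker median as a covariate, each mouse left out and, added after seeing the data, db/db replicate 1 alone. Same-numbered mice did not deviate together (correlations of -0.48, -0.41 and -0.02), and differently numbered mice had correlations between -0.31 and 0.44. With 3 mice per group these values cannot settle whether the numbers pair the mice. The result of 1 uncalled member is not reported here, though it counts in the totals.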

Additional observations from a re-analysis of the deposited data

How the results depend on the processing

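All 7 carriers were called again with an offset, with all probes fitted and with the series matrix. Under quantile normalization 0 genes and 0 carriers were called (2095 and 11 at an unadjusted p under 0.05, limma), and from the Cy5 channel alone 373 genes and 3 carriers. Array weights gave 6673 genes and 22 carriers, leaving out dim probes 11 carriers (1548 genes), and db/db replicate 1 alone 1791 genes. Leaving out each mouse in turn gave between 54 and 3417 genes and between 0 and 13 carriers. The replicate block gave 0 genes and 0 carriers (3085 and 16 at an unadjusted p under 0.05, limma), and whether the replicate numbers pair the mice is not settled. Lean mice against the pool gave 0 genes, and between 0 and 11 when a mouse was left out, with the error pooled over both groups. The share of calls that were higher was 43.7%, but 58.5% with the epididymis covariate. With the covariate 5 carriers passed, Slc7a11 among them, and Slc6a13, Slc7a8 and Slc16a10 did not. Signs turned for Slc16a1 (0.09) and Slc16a3 (-0.13) under quantile normalization and for Slc7a10 (0.10) in db/db replicate 1 alone, none of them called. The cause of these differences was not tested, and the runs that left out a mouse also had fewer mice. Signal near the floor limits the 23 dim carriers and the size of Slc7a11 and Slc6a4.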
